A study of Mus musculus with 15 samples.

Results

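Myelin and oligodendrocyte lineage genes were followed in brain tissue of mice that carry a substitution in Rps9, a protein of the small ribosomal subunit. The genes are 32 named symbols, chosen by name, with earlier results of these data known. Each of the 32 had a row among the 22524 gene identifiers of every count table. They comprise 7 genes of oligodendrocyte precursors, 5 of committed precursors, 3 lineage transcription factors and 17 genes of mature, myelinating cells. The 7 animals called D95N below were heterozygous for Rps9 D95N, with 1 wild-type Rps9 allele, and the 8 animals called WT were wild-type littermates. All 15 were C57BL/6 females aged 18 months, each giving 1 library of total RNA, and each is named below by its genotype and animal number.

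The series design gives the tissue as cortex, whereas the tissue field of the samples gives skeletal muscle. Snap25, a synaptic protein of neurons, averaged 2746 ± 110 CPM (read counts divided by the scaled size of their library) in D95N and 2844 ± 120 CPM in WT (SD, n = 7 and 8), and the mature myelin gene Mbp stood at a like level. Of 7 skeletal muscle markers, 6 averaged under 1 CPM, and the summed level of all 7 ran between 6.27 and 10.2 CPM in D95N libraries and between 7.00 and 30.1 CPM in WT libraries. The transcripts were therefore those of brain tissue, against the tissue field. Of 5 markers of Schwann cells, which make myelin in peripheral nerves, 3 averaged under 1 CPM. The other 2 were Pmp22, at 27.2 ± 3.38 CPM in D95N and 28.02 ± 2.09 CPM in WT, and Egr2, at 6.87 ± 7.51 CPM in D95N and 1.96 ± 1.497 CPM in WT (called higher by edgeR, adjusted p = 0.0324), a transcription factor that neurons make as well.

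Oligodendrocytes wrap axons of the central nervous system in myelin, a stacked membrane rich in galactolipids and held together by a small set of abundant proteins. They arise from precursor cells that persist in the adult brain and carry PDGF receptor alpha and the NG2 proteoglycan. Precursors that commit to differentiation pass through a short stage marked by the receptor Gpr17, switch on the transcription factor Myrf and then make myelin proteins and lipid-synthesising enzymes. Olig1, Olig2 and Sox10 are transcription factors of the lineage at all of these stages.

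The sequences upstream of 4 of the mature genes are shown because the results below turn on these genes. Opalin and Ugt8a had the largest spread between D95N libraries of the mature genes, and Mal and Ppp1r14a had the smallest adjusted p-values among them in each direction. Each line gives the 250 bases before the RefSeq transcript start in GRCm38.p6, 5′ to 3′ on the strand of the gene, and the capitals mark the word ACAAAG, a SOX-type word. The window of Opalin is chr19:41077114-41077363 on the minus strand, that of Ugt8a chr3:125938653-125938902 on the minus strand, that of Mal chr2:127656696-127656945 on the minus strand and that of Ppp1r14a chr7:29289070-29289319 on the plus strand.
Opalin: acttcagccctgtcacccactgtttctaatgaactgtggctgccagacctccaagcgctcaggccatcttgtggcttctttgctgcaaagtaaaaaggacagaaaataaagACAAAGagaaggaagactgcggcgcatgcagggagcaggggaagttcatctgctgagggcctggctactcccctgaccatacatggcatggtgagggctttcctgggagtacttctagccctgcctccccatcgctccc
Ugt8a: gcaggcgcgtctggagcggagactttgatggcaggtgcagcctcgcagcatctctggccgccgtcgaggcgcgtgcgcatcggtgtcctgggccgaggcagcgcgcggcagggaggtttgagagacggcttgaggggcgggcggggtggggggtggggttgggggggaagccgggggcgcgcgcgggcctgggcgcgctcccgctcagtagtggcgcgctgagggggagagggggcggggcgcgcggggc
Mal: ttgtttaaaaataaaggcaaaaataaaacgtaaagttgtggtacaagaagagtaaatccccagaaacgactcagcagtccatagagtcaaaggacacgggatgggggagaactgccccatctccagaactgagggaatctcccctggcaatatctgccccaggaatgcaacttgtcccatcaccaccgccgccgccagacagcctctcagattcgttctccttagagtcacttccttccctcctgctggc
Ppp1r14a: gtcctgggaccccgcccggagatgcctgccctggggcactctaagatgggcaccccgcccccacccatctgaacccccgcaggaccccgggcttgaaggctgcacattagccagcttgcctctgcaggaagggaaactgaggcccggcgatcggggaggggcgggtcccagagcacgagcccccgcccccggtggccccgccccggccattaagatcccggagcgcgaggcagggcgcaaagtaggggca
These windows differ widely in composition. That of Ugt8a was 76.8% G and C with 32 CpG dinucleotides, that of Ppp1r14a 71.2% with 18, and that of Opalin 54.4% with 4, while that of Mal had the lowest share of the 4 and held 7. Windows were found for 22 of the 32 genes. The words ACAAAG and ACAATG were searched on both strands. They occurred in at least 1 window of 9 of these 22 genes (40.9%), against 28.2% of 27025 genes with a window. The 27025 genes had 32851 windows, and a gene with more windows had more chances to match. The words CTGGCAC and CTGGTAC, which resemble the sequence bound by Myrf, occurred in 4 of 22 (18.2%: Cnp, Hapln2, Mag and Mog), against 6.79% of all genes. A match describes letters only, and binding was not measured.

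Library totals ran between 23349381 and 34052037 counts in D95N and between 28007441 and 34587082 counts in WT, and the smallest count of any lineage gene in any library was 37, for Bmp4. Across the 14989 genes that passed the filter on low counts, edgeR called 4016 (26.8%) at an adjusted p under 0.05, of which 2272 (15.2%) were higher and 1744 (11.6%) lower in D95N. With library totals in place of TMM scaling the split was 1808 higher and 2536 lower, and with upper-quartile scaling 1926 higher and 2351 lower. All 32 lineage genes passed the filter. In bulk tissue, fewer cells of a type and less RNA per cell cannot be told apart.

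Of the 32 genes, 3 rose and 3 fell in D95N, together 18.8% against the 26.8% of all genes tested (15.2% higher and 11.6% lower). Vcan, Sox10 and Ppp1r14a were higher, and Cspg5, Mal and Aspa were lower. Their log2 fold changes lay between -0.23 and 0.32, and the median over the 32 was -0.0004, against -0.008 over all genes tested. The called genes came from different stages, with 1 higher and 1 lower among 7 precursor genes, none among 5 committed precursor genes, 1 higher among 3 factors, and 1 higher and 2 lower among 17 mature genes. No gene had all 7 D95N libraries on one side of all 8 WT libraries, a separation that 1.81% of all genes tested showed upward and 1.47% downward.

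**Figure D1:**
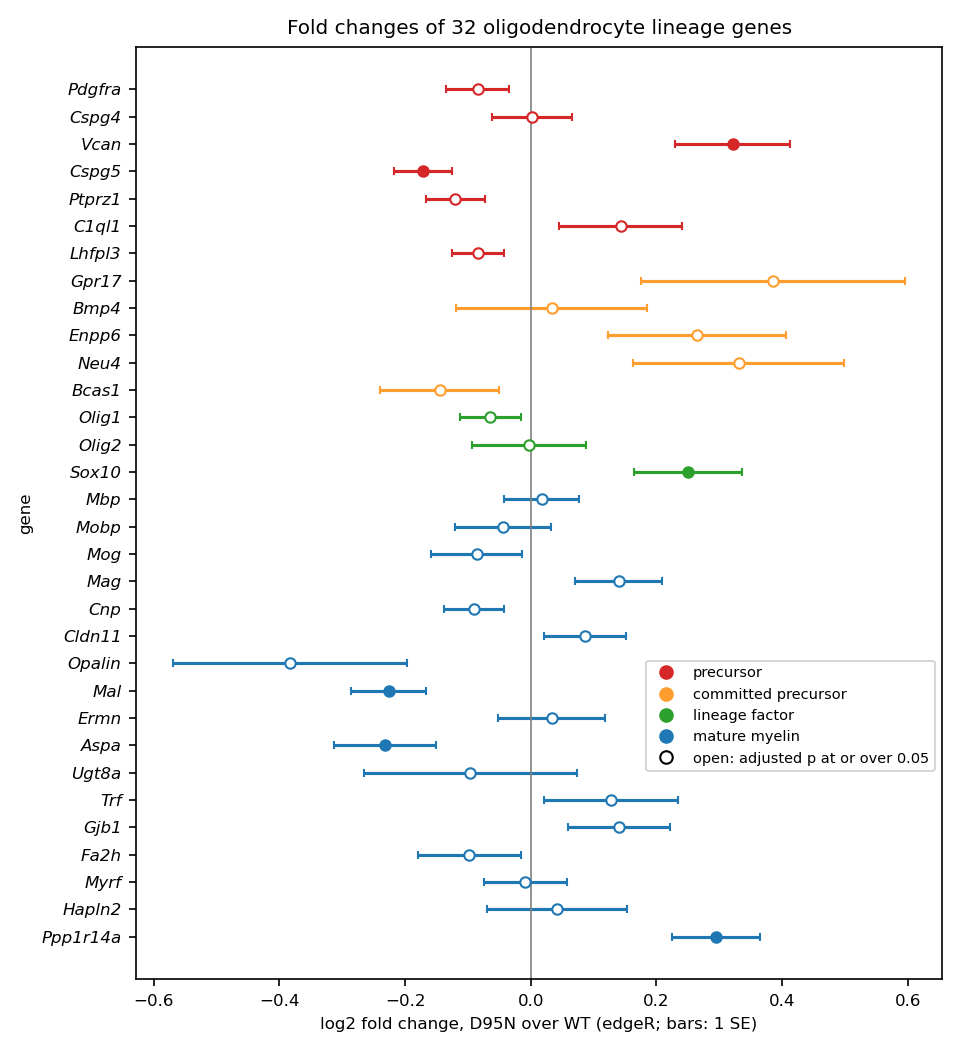
Log2 fold change of each of the 32 genes, D95N over WT, on the horizontal axis, with bars of 1 standard error from edgeR and colours for the stage of the lineage. Filled points passed an adjusted p of 0.05: Vcan, Sox10 and Ppp1r14a to the right of 0, Cspg5, Mal and Aspa to the left, while Gpr17, Neu4 and Opalin lie farther out with wide bars.

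Among the precursor genes, Vcan rose and Cspg5 fell. Vcan encodes versican, a chondroitin sulfate proteoglycan of the extracellular matrix (chr13:89655312-89742509, minus strand). Its level was 23.0 CPM in the lowest, 28.2 in the median and 37.1 in the highest D95N library, against 22.3, 23.8 and 26.8 CPM in WT. The groups overlapped, with 4 D95N libraries above the whole WT range and the other 3 within it. On the log2 scale Vcan rose by 0.32 ± 0.09 (SE), with an adjusted p of 0.0156 by edgeR and means of 29.9 ± 5.63 CPM in D95N and 23.98 ± 1.53 CPM in WT (SD, n = 7 and 8).

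Cspg5 encodes neuroglycan C, a membrane-bound chondroitin sulfate proteoglycan that neurons and astrocytes make as well (chr9:110243783-110262576, plus strand). D95N libraries ran from 211 CPM through a median of 244 to 276 CPM, and WT libraries from 256.5 CPM (WT 43) through 273 to 299 CPM. All D95N libraries but D95N 28 lay below the lowest WT library. The means were 244 ± 19.5 CPM in D95N and 275 ± 12.4 CPM in WT, a log2 fold change of -0.17 ± 0.05 (edgeR adjusted p = 0.0118). Ptprz1, a receptor tyrosine phosphatase of precursors and astrocytes, had the next smallest p of the precursor genes, with 189 ± 15.4 CPM in D95N and 206 ± 9.75 CPM in WT (log2 fold change -0.12 ± 0.05, adjusted p = 0.0691). It passed the threshold when D95N 4 or D95N 41 was left out, and under the scalings by library totals and upper quartiles.

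The genes that define precursors did not pass the test. Pdgfra, the receptor for the growth factor PDGF, averaged 62.8 ± 4.95 CPM in D95N and 66.6 ± 4.13 CPM in WT, with 4 D95N libraries below the WT range (log2 fold change -0.08 ± 0.05, adjusted p = 0.222). Cspg4, which encodes the NG2 proteoglycan and is also made by pericytes, averaged 22.7 ± 1.49 CPM in D95N and 22.7 ± 2.30 CPM in WT, and all 7 D95N libraries lay within the WT range. Its log2 fold change was 0.002 ± 0.06, and it took the opposite sign under library-total and upper-quartile scaling. C1ql1, a secreted C1q-like protein, differed by 0.14 ± 0.10 on the log2 scale (adjusted p = 0.290). Lhfpl3, a tetraspan membrane protein, differed by -0.08 ± 0.04 (adjusted p = 0.144). Summed over the 7 precursor genes, the level was 604 ± 22.1 CPM in D95N and 651 ± 23.8 CPM in WT, a sum in which Cspg5 and Ptprz1 are the 2 highest terms. Of 11 astrocyte markers, 4 fell and 1 rose (45.5%, against 26.8% of all genes), and their summed level ran between 4913 and 5905 CPM in D95N and between 5284 and 5760 CPM in WT. What part astrocytes had in the levels of Cspg5 and Ptprz1 was not tested.

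None of the 5 committed precursor genes was called by edgeR, and none had an unadjusted p under 0.05. DESeq2 and limma-voom also called none. Gpr17, a G protein-coupled receptor that is transient in differentiation, had the largest log2 fold change of the 32 genes by size, 0.39 ± 0.21 (adjusted p = 0.183). Its level was 27.0 CPM in the lowest, 33.7 in the median and 75.8 in the highest D95N library, against 21.8, 32.9 and 43.1 CPM in WT. The 2 highest were D95N 44 at 75.8 CPM and D95N 21 at 62.0 CPM, while the 4 lowest D95N libraries lay inside the WT range. Without D95N 44 the log2 fold change was 0.18 ± 0.18.

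Neu4, a sialidase, showed a like pattern across libraries. D95N libraries ran from 7.38 CPM (D95N 50) through a median of 11.9 to 22.0 CPM (D95N 21), and WT libraries from 9.004 through 10.7 to 12.8 CPM. D95N 21 and D95N 44, the 2 libraries highest in Gpr17, were also the 2 highest in Neu4, and the lowest D95N library lay below all WT libraries. The log2 fold change was 0.33 ± 0.17 (adjusted p = 0.152), and leaving out 1 library moved it between 0.17 without D95N 21 (adjusted p = 0.391) and 0.43 without D95N 50 (adjusted p = 0.0405). Enpp6, a choline-specific phosphodiesterase of newly formed oligodendrocytes, averaged 5.65 ± 1.37 CPM in D95N and 4.72 ± 0.750 CPM in WT, with 3 D95N libraries above the WT range (log2 fold change 0.26 ± 0.14, adjusted p = 0.174). Bmp4, a growth factor that endothelial cells also make, averaged 2.05 ± 0.376 CPM in D95N and 2.001 ± 0.441 CPM in WT.

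Bcas1, which marks cells that begin to myelinate, went the other way with 176 ± 33.1 CPM in D95N and 195 ± 20.4 CPM in WT (log2 fold change -0.15 ± 0.09, adjusted p = 0.266). A single animal stood apart: D95N 42 reached 244 CPM, above all WT libraries, while 3 other D95N libraries lay below the WT range. Leaving out 1 library moved the log2 fold change between -0.24 without D95N 42, which passed the threshold (adjusted p = 0.0151), and -0.10 without D95N 28 (adjusted p = 0.462). The 5 committed genes thus had a median log2 fold change of 0.26, with 4 positive values and 1 negative, and none passing the test.

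Of the 3 lineage factors, Sox10 rose. Sox10, which switches on myelin genes together with Myrf (chr15:79154908-79165240, minus strand), had 37.7 CPM in the lowest, 54.2 in the median and 62.0 in the highest D95N library, against 38.4, 44.3 and 51.5 CPM in WT. In all, 5 D95N libraries lay above the WT range, D95N 21 lay within it at 48.3 CPM, and D95N 42 was the lowest of all 15. The means were 52.8 ± 8.12 CPM in D95N and 44.4 ± 4.04 CPM in WT, which is 0.25 ± 0.09 on the log2 scale (edgeR adjusted p = 0.0401). This call was close to the threshold and held in only 4 of the 15 fits that left out 1 library. It was lost without D95N 28, 4, 41, 44 or 50 and without WT 11, 16, 19, 30, 32 or 43, with adjusted p-values up to 0.0870. With a correction for GC content and gene length, its log2 fold change was 0.12 (adjusted p = 0.320). Olig1 averaged 116 ± 8.67 CPM in D95N and 121 ± 7.83 CPM in WT, and Olig2 30.5 ± 5.24 CPM in D95N and 30.5 ± 2.45 CPM in WT. Neither Olig gene passed the test, although with the GC and length correction the log2 fold change of Olig1 was -0.17 (adjusted p = 0.0362), against -0.06 ± 0.05 without it, and it was called lower. Olig2 had 2 D95N libraries above the WT range and 1 below it.

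Mbp and Mobp, the 2 mature genes of highest level, did not pass the test. Per kilobase of exon, Mbp, myelin basic protein, was the highest of the 32 genes at 335 CPM per kb in D95N and 331 CPM per kb in WT, followed by Mobp at 169 and 175 and by Trf, transferrin, at 129 and 118. Mbp averaged 2833 ± 247 CPM in D95N and 2800 ± 242 CPM in WT, with a log2 fold change of 0.02 ± 0.06 (adjusted p = 0.856) whose sign turned under library-total and upper-quartile scaling. Mobp, which encodes an oligodendrocyte basic protein, averaged 1160 ± 153 CPM in D95N and 1196 ± 116 CPM in WT. Summed over the 17 mature genes, the level was 5757 ± 470 CPM in D95N and 5758 ± 398 CPM in WT (SD, n = 7 and 8). Mbp and Mobp are the 2 highest terms of this sum, which says little about the other mature genes. The smallest levels per kilobase were those of Bmp4 and Enpp6, both under 1 CPM per kb in both genotypes.

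Mag, a glycoprotein of the membrane facing the axon, averaged 212 ± 25.9 CPM in D95N and 193 ± 15.9 CPM in WT (log2 fold change 0.14 ± 0.07, adjusted p = 0.142). Mog, a glycoprotein of the outer myelin surface, averaged 56.0 ± 7.21 CPM in D95N and 59.4 ± 4.58 CPM in WT. Cnp, a cytoplasmic phosphodiesterase of myelin, averaged 296 ± 25.3 CPM in D95N and 315 ± 13.7 CPM in WT, with 4 D95N libraries below the WT range. Cldn11, the claudin of myelin tight junctions, averaged 169 ± 19.4 CPM in D95N and 159 ± 12.4 CPM in WT. All 4 differences missed the threshold, 2 in each direction.

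Mal and Aspa fell. Mal encodes a proteolipid of membrane rafts that takes part in sorting proteins to myelin (chr2:127633226-127656695, minus strand), and its promoter window is the one above with the lowest GC content. Its level was 193 CPM in the lowest, 229 in the median and 252 in the highest D95N library, against 241, 264 and 288 CPM in WT. The lowest 4 D95N libraries lay below the WT range and none lay above it. The means were 225 ± 23.6 CPM in D95N and 264 ± 17.5 CPM in WT, a log2 fold change of -0.23 ± 0.06 (edgeR adjusted p = 0.0110).

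Aspa encodes aspartoacylase, which splits N-acetylaspartate and so frees acetate for myelin lipids (chr11:73304992-73329596, minus strand). Its level was 14.9 CPM in the lowest, 20.5 in the median and 22.9 in the highest D95N library, against 21.2, 23.5 and 26.3 CPM in WT. Again 4 D95N libraries lay below the WT range, the lowest being D95N 21. The log2 fold change was -0.23 ± 0.08 (edgeR adjusted p = 0.0420), with means of 20.2 ± 2.94 CPM in D95N and 23.7 ± 1.85 CPM in WT. The call held in 6 of the 15 fits that left out 1 library and was lost without D95N 21, 28, 42 or 50 and without WT 11, 16, 19, 43 or 8. With the GC and length correction the log2 fold change was -0.14 (adjusted p = 0.162).

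Ppp1r14a rose. It encodes CPI-17, an inhibitor of myosin phosphatase that is found in smooth muscle as well as in mature oligodendrocytes (chr7:29289308-29293801, plus strand). Its level was 11.1 CPM in the lowest, 14.1 in the median and 15.7 in the highest D95N library, against 10.1, 11.3 and 13.1 CPM in WT. The highest 5 D95N libraries lay above the WT range, and D95N 21 was the lowest of the 7. The means were 13.8 ± 1.49 CPM in D95N and 11.2 ± 0.915 CPM in WT, a log2 fold change of 0.29 ± 0.07 (edgeR adjusted p = 0.00581), the smallest adjusted p of the 32 genes. With the GC and length correction the log2 fold change was 0.17 and missed the threshold (adjusted p = 0.0840).

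**Figure D2:**
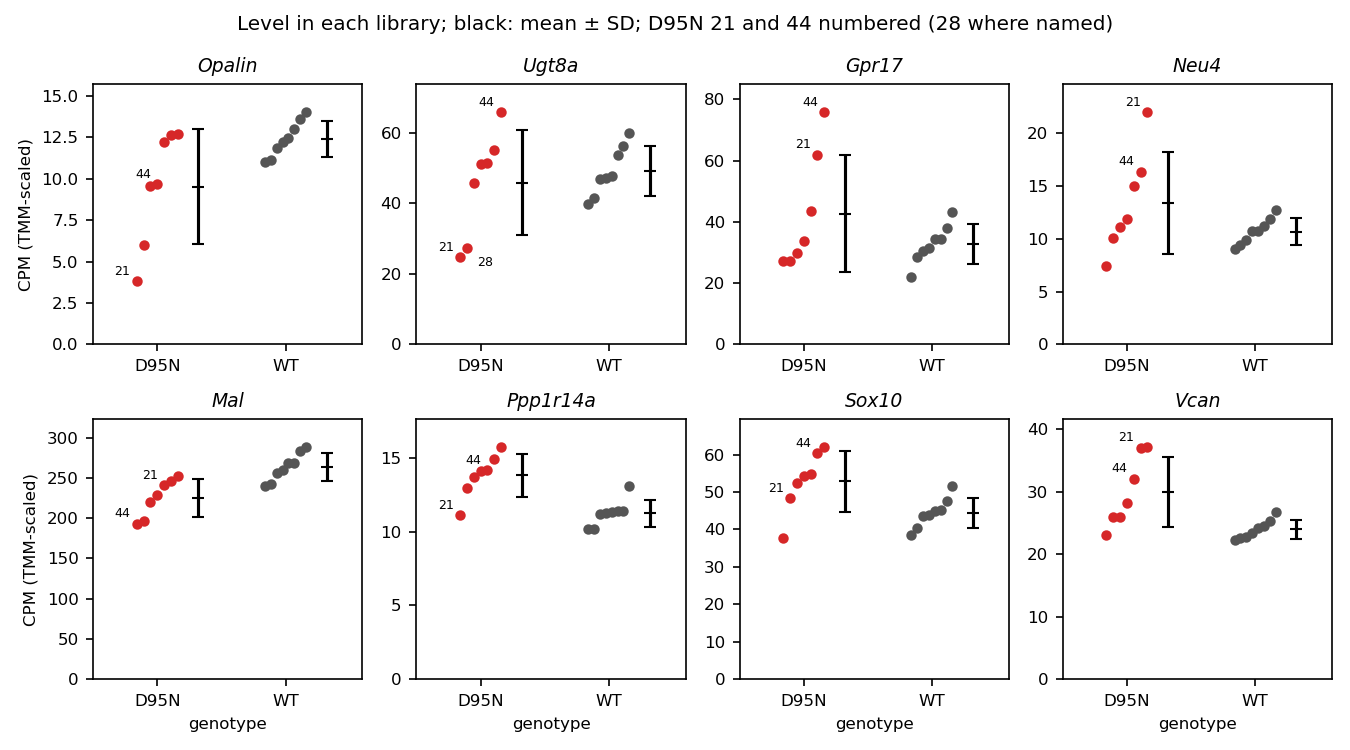
Level of 8 genes in each library, in TMM-scaled CPM on a linear axis from 0, with D95N points left of WT points in each panel and the mean ± SD in black (n = 7 and 8). The low D95N points of Opalin and Ugt8a and the high D95N points of Gpr17 and Neu4 include animal 21, and in Mal, Ppp1r14a, Sox10 and Vcan the groups overlap.

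The enzymes of galactolipid synthesis did not pass the test. Ugt8a, the transferase that makes galactosylceramide (chr3:125865271-125938619, minus strand), had 24.7 CPM in the lowest, 51.1 in the median and 65.8 in the highest D95N library, against 39.8, 47.6 and 59.9 CPM in WT. D95N 21 and D95N 28 lay far below all WT libraries, at 24.7 and 27.4 CPM, and D95N 44 lay above them. The means were 45.9 ± 14.9 CPM in D95N and 49.2 ± 7.05 CPM in WT, and the log2 fold change of -0.10 ± 0.17 (adjusted p = 0.706) turned to 0.01 without D95N 21. Fa2h, which hydroxylates the fatty acids of these lipids, averaged 33.9 ± 5.17 CPM in D95N and 36.3 ± 3.19 CPM in WT (log2 fold change -0.10 ± 0.08, adjusted p = 0.394).

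Opalin, a membrane glycoprotein of the paranodal loops and the inner loop of myelin (chr19:41061710-41077113, minus strand), had the largest fold difference of the mature genes in the fit of all 15 libraries. Its level was 3.80 CPM in the lowest, 9.70 in the median and 12.7 in the highest D95N library, against 11, 12.4 and 14.0 CPM in WT. In 4 D95N libraries it lay below the WT range, and the other 3 lay within it. D95N 21, the lowest, had 107 reads of Opalin, and D95N 42 followed at 6.02 CPM. The means were 9.52 ± 3.47 CPM in D95N and 12.4 ± 1.10 CPM in WT, and the log2 fold change of -0.38 ± 0.19 missed the threshold (adjusted p = 0.134). Leaving out 1 library moved it between -0.46 without D95N 4 and -0.24 without D95N 21, and it passed the threshold in none of these fits.

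The remaining mature genes also missed the threshold. Ermn, an actin-binding protein of the myelin sheath, Gjb1, a connexin, Hapln2, a link protein of the nodal matrix, and Myrf, the transcription factor that switches on myelin genes, had log2 fold changes between -0.01 and 0.14. Myrf averaged 83.6 ± 9.50 CPM in D95N and 84.1 ± 6.83 CPM in WT. Trf, the iron carrier transferrin, averaged 430 ± 89.0 CPM in D95N and 393 ± 34.1 CPM in WT, with 5 D95N libraries above the WT range and 2 below it (log2 fold change 0.13 ± 0.11, adjusted p = 0.389). The reading of Trf is uncertain because Gm20425 lies on the same strand and shares 2108 of its 3320 exon bases, and the ratio of Gm20425 counts to Trf counts lay between 0.942 and 0.97 in all 15 libraries. Choroid plexus also makes Trf, and its 7 markers summed to between 201 and 1161 CPM in D95N and between 279 and 1079 CPM in WT. D95N 4 was highest in both, at 546 CPM of Trf. D95N 42 had the lowest choroid plexus sum but the next highest level of Trf, at 474 CPM. The part of this tissue in the level of Trf was not tested.

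Beyond these 32, 43 further genes of mature oligodendrocytes were examined, of which 3 rose and 5 fell (18.6%, against 26.8% of all genes), with a median log2 fold change of 0.003. Their summed level, which is set mainly by the genes of highest level, was 5636 ± 548 CPM in D95N and 6118 ± 279 CPM in WT. Klk6, a kallikrein-related protease, rose by a log2 fold change of 0.77 ± 0.19 (edgeR adjusted p = 0.00709), with 9.67 ± 3.75 CPM in D95N and 5.71 ± 0.888 CPM in WT. Its D95N libraries ran between 5.54 and 15.01 CPM and 4 of them exceeded the WT range. Gsn, the actin-severing protein gelsolin, rose by 0.21 ± 0.05 (adjusted p = 0.00855). Those that fell included Plekhb1 (-0.20 ± 0.05, adjusted p = 0.00439), Evi2a (-0.27 ± 0.07, adjusted p = 0.0123), the orphan receptor Gpr37 (-0.21 ± 0.06, adjusted p = 0.0223) and Cers2, a ceramide synthase for very long chains (-0.13 ± 0.04, adjusted p = 0.0295). In Gpr37 and Cers2, 6 of the 7 D95N libraries lay below the WT range.

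Of 26 further genes of precursors and committed precursors, 5 rose and 2 fell (26.9%), a share close to that of all genes. Megf11, a membrane protein with EGF-like repeats, had the largest change, 46.3 ± 17.7 CPM in D95N and 22.7 ± 2.13 CPM in WT (log2 fold change 1.02 ± 0.18, edgeR adjusted p = 8.43e-04). Its D95N libraries ran between 26.0 CPM in D95N 42 and 71.7 CPM in D95N 50, and 6 of 7 exceeded the WT range. Xylt1, which starts the sugar chains of proteoglycans, rose by 0.39 ± 0.07 (adjusted p = 0.00130), and Pcdh15, a protocadherin, by 0.46 ± 0.11 (adjusted p = 0.00712). Cdo1, cysteine dioxygenase, rose by 0.29 ± 0.07 (adjusted p = 0.00628) and Matn4, a matrilin of the extracellular matrix, by 0.22 ± 0.07 (adjusted p = 0.0281). Rlbp1, a retinaldehyde-binding protein, fell to 12.7 ± 1.51 CPM in D95N, against 16.2 ± 1.10 CPM in WT (log2 fold change -0.36 ± 0.07, adjusted p = 0.00168). Some of these genes are also made by neurons or astrocytes, and of 10 neuronal markers 3 rose and 2 fell (50%, against 26.8% of all genes).

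The spread between animals was wider in D95N for most lineage genes, as it was for most genes. On the log2 CPM scale the SD was larger in D95N than in WT for 29 of the 32 genes (90.6%), against 83.1% of all genes tested. The median SD over the 32 was 0.193 in D95N and 0.122 in WT, and over all genes 0.155 in D95N and 0.0903 in WT. The median ratio of the D95N to the WT SD was 1.65 for the lineage genes and 1.62 for all genes. All 17 mature genes and all 3 factors had the larger SD in D95N, against 5 of 7 precursor and 4 of 5 committed genes, the exceptions being Cspg4, C1ql1 and Bmp4. Mbp was near even, with SDs of 0.127 in D95N and 0.122 in WT.

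The 4 largest SDs in D95N belonged to Opalin, Gpr17, Ugt8a and Neu4. That of Opalin was 0.649 in D95N against 0.127 in WT, a ratio of 5.1 and the 96.5th percentile of D95N SDs over all genes. Gpr17 had 0.595 in D95N and 0.294 in WT, Ugt8a 0.532 in D95N and 0.207 in WT, and Neu4 0.512 in D95N and 0.169 in WT. Leaving out 1 library at a time gave between 27 and 30 genes with the larger SD in D95N, against between 78% and 84.4% of all genes. Leaving out the 2 libraries of lowest total count, D95N 28 and D95N 50, gave 29, against 74.6% of all genes.

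**Figure D3:**
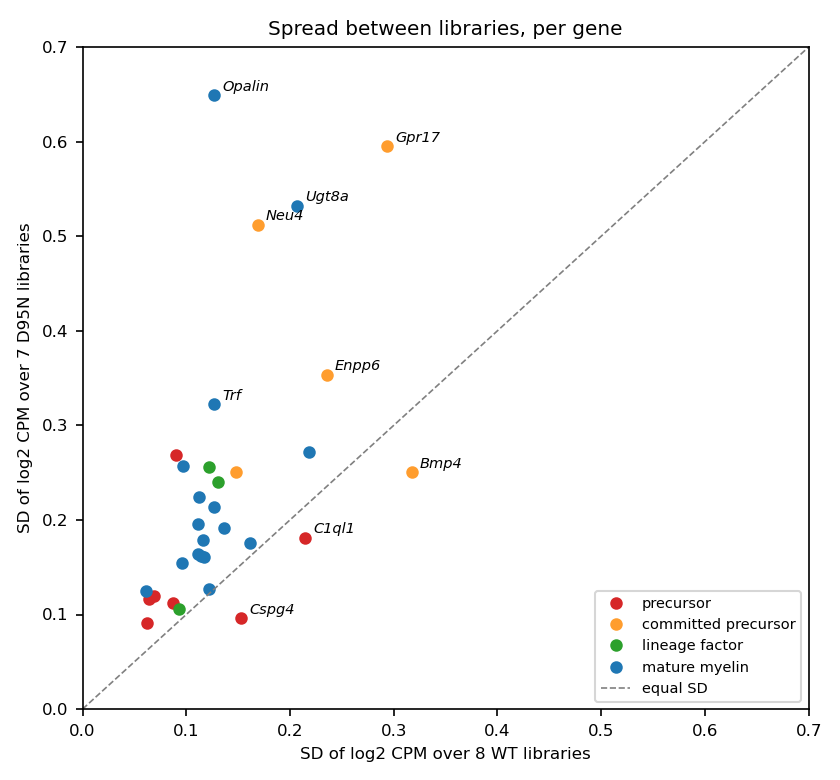
SD of log2 CPM between the 7 D95N libraries on the vertical axis against that between the 8 WT libraries on the horizontal axis, with 1 point per gene, coloured by stage. Points above the diagonal vary more between D95N animals, as 29 of 32 do, and Opalin, Gpr17, Ugt8a and Neu4 lie highest.

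Individual D95N animals differed in which lineage genes were low or high. D95N 21 was the lowest of all 15 libraries for 8 of the 17 mature genes (Mog, Mag, Opalin, Ermn, Aspa, Ugt8a, Trf and Fa2h) and lay below the WT range in 9 of the 17. Its mean log2 ratio to the WT mean over the mature genes was -0.30, whereas the WT libraries lay between -0.10 and 0.13. D95N 28 lay below the WT range in 8 of the 17 and D95N 50 in 6, with means of -0.103 and -0.115. The other D95N libraries lay below it in between 0 and 5. The committed genes of D95N 21 were split, with log2 ratios of 0.92 for Gpr17 and 1.04 for Neu4, against -0.31 for Bcas1, -0.25 for Enpp6 and -0.03 for Bmp4. The precursor genes of D95N 21 were split too, with a mean log2 ratio of -0.009. Vcan was at 0.63, as in D95N 4, and Pdgfra and Cspg4 were each at 0.09. Cspg5 was at -0.38, the lowest of all 15 libraries, Ptprz1 at -0.205, Lhfpl3 at -0.16 and C1ql1 at -0.11. D95N 41 stood at the other end, with a mean over the mature genes of 0.15, none of them below the WT range and 7 above it. D95N 44 had the highest mean over the committed genes, 0.41, with the mature genes at 0.001. Counts outside the WT range were not made over all genes for single libraries. Because the SD was larger in D95N for 83.1% of all genes tested, these counts are not shown to be particular to the lineage genes.

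**Figure D4:**
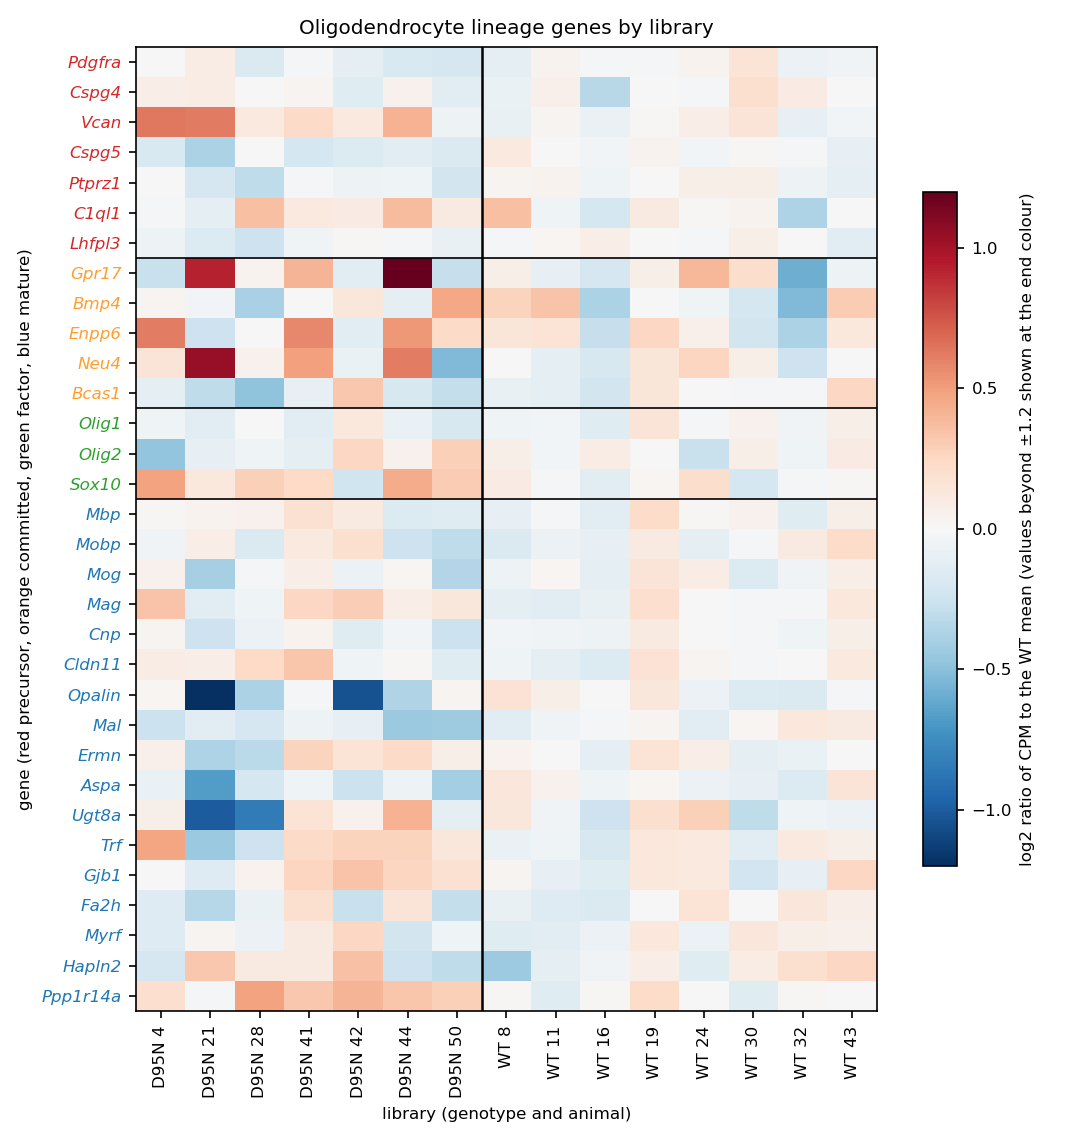
Log2 ratio of each gene in each library to the WT mean, with D95N libraries in the columns on the left and WT libraries on the right, and genes in rows grouped by stage. D95N 21 shows the low values of Opalin and Ugt8a and the high values of Gpr17 and Neu4, and D95N 44 the high value of Gpr17.

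D95N 21 also had the lowest mean log2 ratio of the 15 libraries over 10 microglial and over 8 meningeal markers. The microglial mean was -0.30 in D95N 21, between -0.06 and 0.18 in the other D95N libraries and between -0.15 and 0.23 in WT libraries. The meningeal mean was -1.19 in D95N 21, between -1.08 and -0.30 in the other D95N libraries and between -0.37 and 0.23 in WT libraries. The endothelial mean did not follow the mature genes, with -0.38 in D95N 21 but -0.46 in D95N 41, the library with the highest mature mean, and between -0.29 and 0.37 in WT libraries. Its striatal markers were at 0.31, the highest of the D95N libraries, with WT libraries between -0.26 and 0.41. Across the 17 mature genes, deviations from the WT mean followed GC content with a Pearson correlation of 0.60 in D95N 21 and 0.74 in D95N 28. That correlation lay between -0.07 and 0.43 in the other D95N libraries and between -0.75 and 0.49 in WT libraries. It is a correlation across genes of 1 library, which are not independent replicates, and over all genes it was 0.17 in D95N 21 and 0.37 in D95N 28.

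A correction of each library for GC content and gene length left the low values of D95N 21 in place. Its log2 ratio for Opalin was -1.64 after the correction and -1.69 before it, and its mean over the mature genes was -0.32 after and -0.30 before. For Ugt8a the ratio was -0.86 after and -0.99 before in D95N 21, and -0.56 after and -0.84 before in D95N 28. After the correction, 27 of the 32 genes had the larger SD in D95N, against 80.8% of all genes. The exceptions were then Cspg4, C1ql1, Lhfpl3, Bmp4 and the mature gene Mbp. Mbp was again near even, with SDs of 0.1233 in D95N and 0.1237 in WT. What part tissue composition had in these profiles was not tested.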

How the data were processed

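RNA-seq of 15 libraries was analysed, 7 from Rps9 D95N heterozygotes and 8 from WT littermates. Per the labels' protocols, RNA was extracted from frozen tissue with Trizol and libraries followed Illumina protocols. The authors deposited raw read counts per Ensembl gene, made with STAR and featureCounts on GRCm38, per the submitters' processing notes. Tool versions, the strand setting and the treatment of overlapping genes were not given in the sources used here, and gene counts cannot show the substitution itself. Of 22524 identifiers, 22291 matched GENCODE M21, from which symbols, exon lengths and coordinates come.

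Counts were tested with edgeR 4.0.16 (quasi-likelihood test, TMM scaling, default filter on low counts, genotype as the single term) in R 4.3.3, with Benjamini-Hochberg adjustment over all 14989 genes tested and a threshold of 0.05. CPM values were derived from the counts that the authors deposited, with TMM-scaled library sizes, and standard errors are the size of the log2 fold change over the square root of F. Spread is the SD of log2 CPM with a prior count of 2. Log2 ratios of a library are to the WT mean. Motifs were counted in RefSeq windows of GRCm38.p6. No 2 libraries agreed within sampling noise (lowest chi-square per degree of freedom 3.77). By this measure D95N 42 lay nearer to every WT library (8.41 to 12.1) than to any other D95N library (12.5 to 44.3). D95N 41 lay at 11.8 to 17.6 from WT libraries and 12.5 from D95N 42, against 17.8 to 29.5 from the other D95N libraries. Without D95N 42, edgeR called 2694 genes higher and 2282 lower. Why D95N 41 and D95N 42 lay near to WT was not tested. Alternatives were other scalings, no filter, DESeq2 1.42.0, limma-voom (limma 3.58.1) with library quality weights, a GC and length correction (mgcv 1.9.3), each library left out, and both shallowest libraries left out. The GC correction of spread and of single libraries was added after seeing the data. On simulated D95N and WT counts over 14930 genes, with 50 genes altered at each factor, edgeR made 6 false calls. It found 38% of the genes altered by a factor of 1.2, and 80%, 92% and 100% of those altered by factors of 1.5, 2 and 3. Each simulated gene had 1 dispersion for both genotypes. In the measured counts the spread was larger in D95N for 83.1% of genes, and 26.8% of genes were called. The simulated rates may therefore not hold for the measured counts.

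The genes and lists were chosen with earlier results of these data known. Named genes are the 32, up to 6 called genes of each further list by smallest p, and 2 of highest CPM of each cell type list, of which not all are printed. The labels name no batch, and the libraries of 1 genotype are separate animals.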

Additional observations from a re-analysis of the deposited data

Results flagged for a closer look

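A sample that stood apart from the rest of its group was found in 3 of 64 groups of values, 1 group for each of the 32 genes in each genotype (3 of 72 with the library measures), and chance alone gives about 1 in 20. Bcas1 was high in D95N 42, at 243.8 CPM, against 182.7 CPM in the next D95N library. Ppp1r14a was high in WT 19, at 13.1 CPM, with the next WT library at 11.38 CPM. Olig2 was low in WT 24, at 25.3 CPM, with the next WT library at 29.35 CPM. The cause was not tested.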

How the results depend on the processing

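Mal, Vcan and Cspg5 passed the threshold in all 23 alternative fits, and Ppp1r14a in 22. No called gene changed sign, while 10 of the other 26 did in at least 1 fit. Aspa passed in 11 of 23 fits and Sox10 in 8. With library totals and with upper-quartile scaling, precursor genes called lower numbered 2 and factors called higher 0. With the GC and length correction, mature genes called higher were 0 and lower 1, factors called higher 0 and lower 1 (Olig1), and further mature genes called higher 1. With no filter on low counts, mature genes called lower were 1. Without the 2 shallowest libraries, mature genes called lower were 1, committed genes called higher 1 (Neu4, adjusted p = 0.0269), factors called higher 0, further mature genes called higher 5 and lower 3, and further precursor genes called lower 1. The number of genes called also moved over all genes, from 2272 higher and 1744 lower of 14989. It was 2373 higher and 1903 lower of 14928 with the GC and length correction. With no filter it was 2308 higher and 1555 lower of 18953. Without the 2 shallowest libraries it was 1972 higher and 1389 lower of 15103. The cause of these moves was not tested.

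Log2 fold changes that turned were Mbp at -0.016 with library totals, -0.0062 with upper quartiles and -0.0060 with limma-voom, Cspg4 at -0.0338, -0.0220 and, with the GC and length correction, -0.1033, Bmp4 at -0.0002 with library totals, Hapln2 at -0.0186 and C1ql1 at -0.0667 with the GC and length correction, and Mobp at 0.0269, Ugt8a at 0.0153 and Myrf at 0.0112 without the 2 shallowest libraries. Leaving out 1 library gave between -0.0116 and 0.0518 for Mbp, -0.0084 and 0.0929 for Ermn, -0.2054 and 0.0134 for Ugt8a, -0.0554 and 0.0247 for Myrf, -0.0164 and 0.0910 for Hapln2, -0.0384 and 0.0315 for Cspg4, -0.0473 and 0.0907 for Bmp4 and -0.0562 and 0.0645 for Olig2. It gave 1 or 2 mature genes lower, 1 or 2 precursor genes lower, 0 or 1 committed genes in each direction, 0 or 1 factors higher, 2 to 5 further mature genes higher and 3 to 7 lower, and 4 to 6 further precursor genes higher and 1 or 2 lower. Over all genes, it gave between 1952 and 2694 higher and between 1305 and 2282 lower.

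No analysis paired by litter was possible because the labels name no litter, and the genotypes share no animal numbers. In the simulation at this depth and number of animals, changes near 1.2-fold were often missed. A gene that missed the threshold is therefore not shown to be alike in both genotypes.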
